A study of Homo sapiens with 14 samples.

Results

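Sites of the Polycomb protein EED were compared with sites of the histone mark H3K27me3 in control DU145 cells, an established human prostate cancer line. The members were taken as the whole deposited peak lists of the EED and of the H3K27me3 chromatin immunoprecipitation sequencing (ChIP-seq) libraries of control cells, with no selection on height or length. They comprised 13082 EED peaks and 35368 H3K27me3 peaks, 48450 of the 191347 peaks in the 7 control lists. The series as a whole holds 14 libraries with 227479 peaks, from control and EED-knockdown cells, and the knockdown libraries were not used here. The control cells carried a scramble construct and had been selected with puromycin. Each antibody had 1 library, so no difference has a replicate check, no p-value is given, and the 95% intervals cover counting error only. They also treat peaks as independent, although neighbouring peaks share a source.

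EED belongs to the core of Polycomb repressive complex 2 (PRC2), which methylates lysine 27 of histone H3. Its product H3K27me3 is found over silent developmental genes, often in broad domains. EED also carries a pocket that binds H3K27me3, which allows the complex to stay on chromatin that is already marked. Polycomb repressive complex 1 (PRC1) contains the ubiquitin ligases RING1A and RING1B and their partner BMI1, and places ubiquitin on histone H2A (uH2A). Antibodies to these 3 proteins, and a rabbit and a mouse antibody to uH2A, gave the 5 other control lists with which the 2 PRC2 lists were set side by side.

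By how their labels describe the culture and how their files write chromosomes, the libraries form 2 sets. EED and both uH2A antibodies are in the first set, and H3K27me3, RING1A, RING1B and BMI1 are in the second. A difference between EED and H3K27me3 therefore cannot be told apart from a difference between the sets, and the comparisons with the other lists are given for both sets. Every peak on chromosomes 22, X and Y has a height of 0 in the 4 lists of the second set, and no other peak of these lists has that height. The 1430 H3K27me3 peaks with a height of 0 are thus all of its peaks on these chromosomes. Height classes and the median heights printed for them or for distance classes used the 21 other chromosomes only. Median heights that served as cut-offs were taken over all peaks of a list, those of height 0 included. EED heights are above 0 everywhere, and the ranking of the tallest EED peaks used all chromosomes. EED peaks on chromosomes numbered 23 and 24 were read as X and Y. Of the 18 EED peaks numbered 24, 14 overlapped a Y peak of the second set and 0 an X peak. Of the 9 numbered 23, 1 overlapped an X peak and 0 a Y peak. Read totals are unknown here. Coordinates are hg19, and sites are named by position because no hg19 annotation was used.

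The mark was listed in longer and far more crowded peaks than the PRC2 subunit. EED peaks had a median length of 125 bp, with 25% at or below 100 bp and 25% at or above 200 bp. H3K27me3 peaks had a median of 200 bp, with the corresponding limits at 125 and 300 bp. The medians thus differed by 75 bp, and by 125 bp among peaks at or above the median height of their list. The difference was 225 bp with the tallest H3K27me3 peaks in the number of EED peaks. The longest EED peak was 2125 bp and the longest H3K27me3 peak 10225 bp. Peaks of at least 1 kb numbered 20 in the EED list (0.153%) and 1486 in the H3K27me3 list (4.20%), which is 4.05 percentage points apart (3.83 to 4.27, Newcombe interval). Those 1486 peaks held 23.8% of all the bases under H3K27me3 peaks. The H3K27me3 list covered 10.4 Mb and the EED list 2.13 Mb. Lengths were multiples of 25 bp, and 75 bp was the shortest length in each list, so the lower end of both distributions was set by the peak caller.

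**Figure D1:**
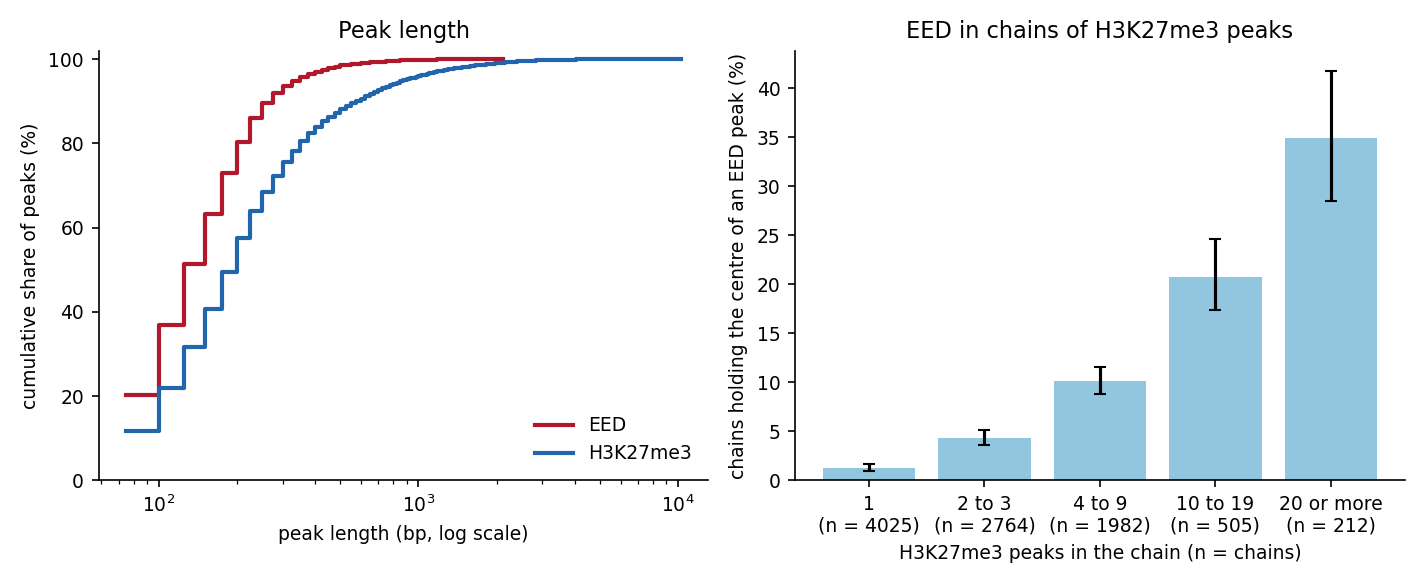
Left, cumulative share of peaks (%) against peak length (bp, log scale) for the EED and H3K27me3 lists, where the H3K27me3 curve lies to the right, with medians of 200 and 125 bp. Right, the share of H3K27me3 chains (%) that hold the centre of an EED peak, by the number of H3K27me3 peaks in the chain, with Clopper-Pearson 95% intervals, which rises from 1.27% to 34.9%.

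EED sites stood mostly alone. The median gap from an EED peak to the next EED peak was 14450 bp, and 66.9% of EED peaks had no other EED peak within 5 kb (Clopper-Pearson interval 66.0 to 67.7). For H3K27me3 the median gap was 400 bp, and 11.4% of peaks had no neighbour of the same list within 5 kb. The 5 other lists lay between the 2, with median gaps from 875 bp for RING1B to 3100 bp for uH2A rabbit. RING1B has fewer peaks than EED, 5155, and its peaks were closer together. When H3K27me3 peaks at most 5 kb apart were joined, they formed 9488 chains, of which 42.4% held a lone peak. The 717 chains of at least 10 peaks held 38.9% of all H3K27me3 peaks. EED peaks joined in the same way formed 10423 chains, 83.9% of them with a lone peak, and the largest held 21 peaks. The scattered EED list came within 100 kb of 30.8% of the bases of the chromosome spans, more than the 24.1% reached by the longer but chained H3K27me3 list.

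EED peaks seldom lay on the mark. Of 13082 EED peaks, 707 (5.40%, 5.02 to 5.81) shared at least 1 bp with an H3K27me3 peak, where the background over the peaks of the 5 other control lists was 7.98%. Within 1 kb the share was 8.03% (background 11.5%), within 5 kb 13.6% (17.5%), within 20 kb 24.8% (29.2%) and within 100 kb 49.95% (55.7%). The EED share was below this background at each of the 5 distances. With the tallest H3K27me3 peaks in the number of EED peaks, 3.58% of EED peaks lay on the mark and 8.10% within 5 kb. The median EED peak was 100162 bp from the nearest H3K27me3 peak. Set against single lists, EED overlapped H3K27me3 less often than RING1B (a difference of -20.1 points, -21.3 to -18.8), BMI1 (-4.99 points, -5.55 to -4.42) and uH2A rabbit (-4.72 points, -5.24 to -4.18). These 3 differences kept their sign, with intervals clear of 0, under all 6 alternatives for which they were recomputed. They were not recomputed for peaks of height above 0 only. The differences from the largest lists were small. EED minus RING1A was -0.878 points (-1.30 to -0.431), an interval that reached past 0 when peaks below the median height of their list were left out. EED was 0.463 points above uH2A mouse (0.0206 to 0.923), and that interval included 0 under 5 of the 6 alternatives. Within 5 kb EED minus uH2A mouse was 1.25 points (0.569 to 1.94), an interval that included 0 under 1 alternative. Within 100 kb the sign changed, to -1.47 points (-2.47 to -0.457).

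**Figure D2:**
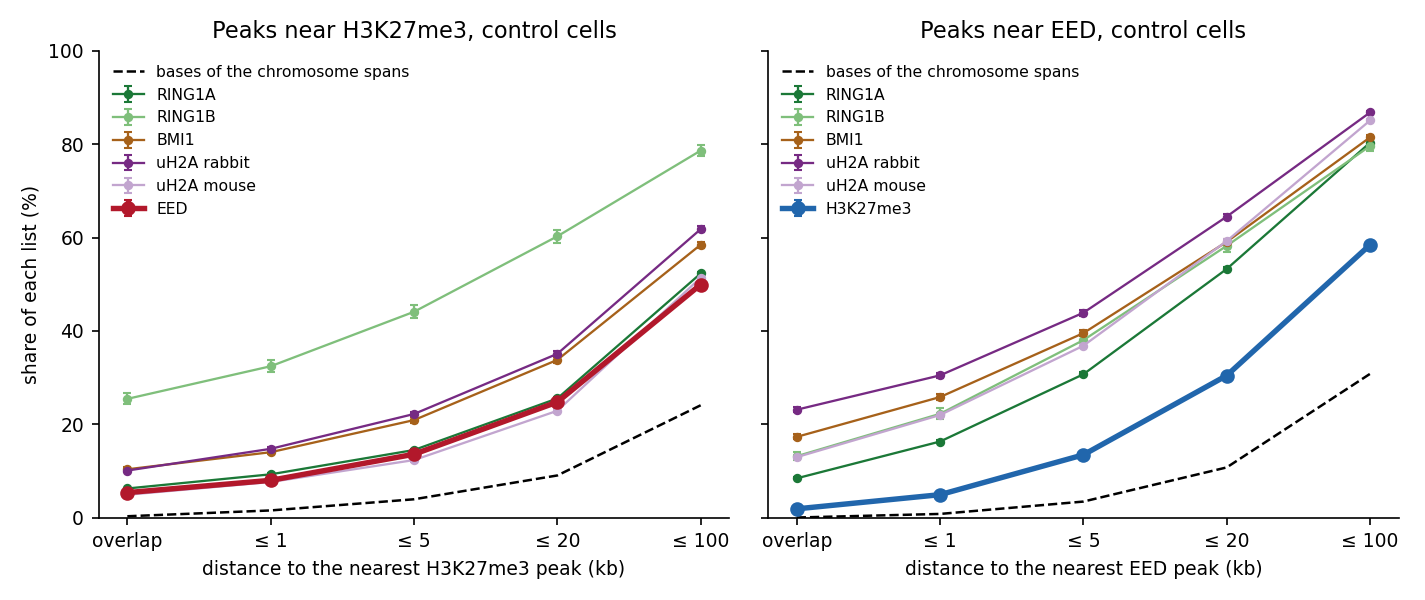
Share of each control list (%) that overlaps or lies within 1, 5, 20 or 100 kb of an H3K27me3 peak (left) or an EED peak (right), with Clopper-Pearson 95% intervals, beside the share of bases of the chromosome spans (dashed). EED runs together with RING1A and uH2A mouse on the left, while H3K27me3 lies below the 5 other lists at every distance on the right.

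The mark in turn was the list farthest from EED. Of 35368 H3K27me3 peaks, 680 (1.92%, 1.78 to 2.07) shared a base with an EED peak, against a background of 13.8% over the 5 other lists. This share was 3.49% with peaks within 1000 bp merged in each list, 3.26% with the tallest H3K27me3 peaks in the number of EED peaks, and 0.772% where the overlap had to cover at least 50% of the peak. The share was 4.96% within 1 kb (background 22.0%), 13.5% within 5 kb (36.2%), 30.5% within 20 kb (57.8%) and 58.5% within 100 kb (82.8%). The lowest share of overlap with EED among the 5 other lists was that of RING1A, at 8.46%, and the highest that of uH2A rabbit, at 23.1%. H3K27me3 minus RING1A was -6.54 points (-6.81 to -6.26), and H3K27me3 minus uH2A rabbit -21.2 points (-21.8 to -20.7). All 5 differences stayed below 0 with intervals clear of it under the same 6 alternatives. RING1A, RING1B and BMI1 come from the library set of H3K27me3 and overlapped EED of the other set at 8.46%, 13.2% and 17.3%. The median gap to the nearest EED peak was 61875 bp for H3K27me3 and from 8125 bp for uH2A rabbit to 16800 bp for RING1A.

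Although rare, overlap with the mark was more frequent than the share of the genome it covers. To leave peak length out of this comparison, the position of each EED peak's centre was used. The centre lay inside an H3K27me3 peak for 4.69% of EED peaks (4.33 to 5.06), while H3K27me3 peaks covered 0.337% of the chromosome spans, a 13.9-fold ratio. Within 5 kb the values were 13.5% of centres and 3.97% of bases (3.40-fold), and within 100 kb 49.9% and 24.1% (2.07-fold). The spans include assembly gaps, where no peak can be called. Inside an H3K27me3 peak the ratio for EED was the second lowest of the 6 lists. It was 12.7-fold for uH2A mouse, 16.4-fold for RING1A, 25.7-fold for uH2A rabbit, 27.7-fold for BMI1 and 69.5-fold for RING1B.

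Taller sites, and most classes of longer sites, met the other list more often. Among the 25% tallest EED peaks of chromosomes 1 to 21, 8.996% lay on H3K27me3 (8.02 to 10.0), against 3.82% of the 25% lowest (3.18 to 4.55). By length, the share was 3.97% for EED peaks of 75 to 100 bp, 9.07% for 225 to 400 bp and 11.2% for 425 to 975 bp. Of the 20 EED peaks of at least 1 kb, 1 lay on the mark (5.00%, 0.127 to 24.9), too few to place this class. H3K27me3 behaved alike at a lower level. Of its 25% tallest peaks 4.14% lay on EED (3.72 to 4.58), and of the 25% lowest 0.849% (0.665 to 1.07). Of the 1486 H3K27me3 peaks of at least 1 kb, 9.76% carried an EED peak (8.30 to 11.4), and of the 7757 peaks of 75 to 100 bp, 1.02%. A longer peak can share 1 bp with another list more easily by its size alone, and this was not taken out here. Within 5 kb the contrast was smaller, at 23.8% and 12.2% for these H3K27me3 classes. For EED peaks of 425 to 975 bp and of 75 to 100 bp it was 26.2% and 11.4%. Height and length rise together within each list, as the median length was 75 bp among the lowest 25% of EED peaks and 225 bp among the tallest. EED peaks on the mark had a median height of 35.2 (middle 50% from 30.6 to 43.4), and those over 100 kb away 32.2 (29.2 to 36.4), so the distributions overlapped widely. H3K27me3 peaks on EED had a median height of 57.0, and those over 100 kb from EED 40.0. Heights are in the caller's own unit and can be compared only within a list.

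At shared sites the EED peak usually lay within the mark. Of the 707 EED peaks on H3K27me3, 463 (65.5%) were covered from end to end, and the other way round 89 of 680 H3K27me3 peaks (13.1%) lay wholly under EED. The median length of EED peaks was 175 bp on the mark and 125 bp elsewhere. For H3K27me3 it was 375 bp on EED and 200 bp elsewhere. Peak length enters both comparisons, since a shorter peak is more easily covered end to end and a longer peak overlaps more readily. In all, the 2 lists shared 113.95 kb, which is 5.35% of the bases under EED peaks and 1.09% of those under H3K27me3 peaks.

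Chains of the mark held EED the more often the longer they were. The centre of an EED peak fell in 1.27% of lone H3K27me3 peaks (51 of 4025), in 4.34% of chains of 2 to 3 peaks, in 10.1% of those of 4 to 9, in 20.8% of those of 10 to 19 and in 34.9% of those of 20 or more (74 of 212, interval 28.5 to 41.7). Longer chains offer more bases. Per Mb of chain the number of EED peaks was 75.5 for lone H3K27me3 peaks, which have no gaps and whose bases are all under the mark. It was nearly level for the chains with gaps, at 21.9, 23.2, 23.3 and 26.3 from chains of 2 to 3 peaks up to those of 20 or more. Over all chromosome spans it was 4.23 per Mb. Most long chains thus held none, including 138 of the 212 with at least 20 peaks. Chains of at least 2 peaks spanned 1.096% of the chromosome spans and held 803 EED centres, 6.14% of the EED list. Of these 803, 561 (69.9%, 66.6 to 73.0) lay inside an H3K27me3 peak and the others in the gaps between, while H3K27me3 peaks covered 28.8% of the bases of these chains. Within chains of at least 10 peaks, 49.3% of 379 EED centres lay in the outer parts, the 25% of the chain at each end (44.2 to 54.5). The share of H3K27me3 peaks there was 52.6%.

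Sites shared by EED and the mark also carried PRC1 and uH2A more often than sites of either list far from the other. Among EED peaks on H3K27me3, 77.1% were shared with uH2A rabbit, 59.1% with RING1A, 55.6% with BMI1, 52.3% with uH2A mouse and 27.3% with RING1B. Among EED peaks over 100 kb from the mark these shares were 41.5%, 32.5%, 22.97%, 30.5% and 2.08%. The differences ran from 21.9 points for uH2A mouse (18.0 to 25.7) to 35.6 points for uH2A rabbit (32.1 to 38.8). This order depended on length. Among EED peaks of 225 to 400 bp, 198 on the mark and 948 distant, the difference for uH2A rabbit was 17.9 points (12.2 to 22.4), the smallest of the 5, and that for RING1B 35.7 points (28.8 to 42.8), the largest. In ratio over all lengths, the widest contrast was that of RING1B, the PRC1 ligase with the shortest list. For uH2A rabbit the share fell by steps, to 73.2% of EED peaks at up to 1 kb from the mark, 68.9% at 1 to 5 kb, 59.5% at 5 to 20 kb and 53.1% at 20 to 100 kb. EED peaks on the mark lay on none of the 5 other lists in 7.64% of cases, and those over 100 kb away in 35.6%. All 5 other lists met at 111 EED peaks on the mark (15.7%) and at 62 of the 6548 distant ones (0.947%).

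**Figure D3:**
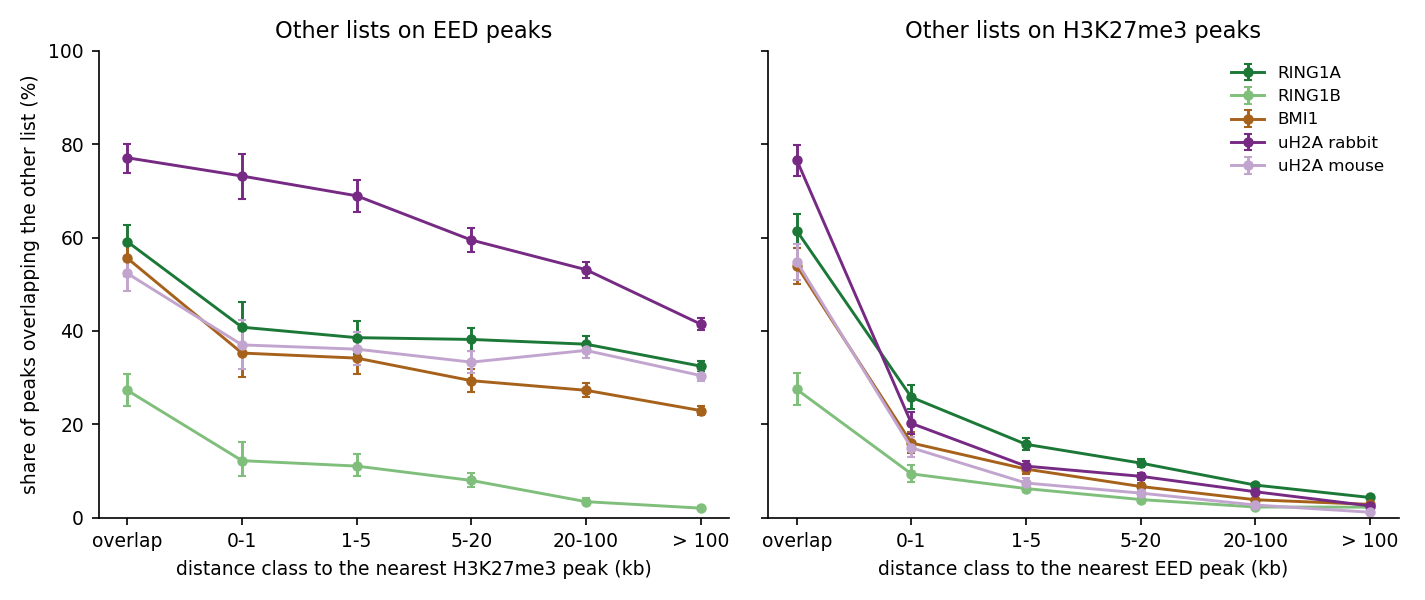
Share of EED peaks (left) and H3K27me3 peaks (right) that overlap a peak of each of the 5 other control lists (%), by distance class to the nearest H3K27me3 or EED peak (kb), with Clopper-Pearson 95% intervals. On the right all 5 curves drop between overlap and the class of up to 1 kb, for uH2A rabbit from 76.6% to 20.2%.

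For H3K27me3 the contrast with distant peaks was larger for 4 of the 5 lists, and the shares dropped just beyond the overlap. The 680 H3K27me3 peaks on EED and the 707 EED peaks on the mark are both sides of the same overlaps. Their shares are therefore not separate results. Of the 680 H3K27me3 peaks on EED, 76.6% lay on uH2A rabbit, 61.5% on RING1A, 54.9% on uH2A mouse, 54.0% on BMI1 and 27.5% on RING1B. For H3K27me3 peaks that missed EED by at most 1 kb the shares were 20.2%, 25.8%, 15.0%, 16.03% and 9.41%. Over 100 kb from EED they were 2.56%, 4.36%, 1.205%, 2.88% and 2.29%, and 91.96% of these 14694 peaks met none of the 5 other lists. Among H3K27me3 peaks of 225 to 400 bp the differences were smaller for all 5 lists, from 23.9 points for RING1B (17.6 to 31.3) to the highest for uH2A rabbit. There uH2A rabbit was on 67.3% of 159 peaks that overlapped EED and on 2.12% of 3779 distant ones, a difference of 65.2 points (57.5 to 72.0). Outside high-signal windows, which are 100-kb windows and their neighbours where 2 or more control libraries hold peaks taller than 10 times their own median, the difference for uH2A rabbit was 74.9 points against 74.1 at all positions. For RING1B it was 20.2 points outside and 25.2 at all positions. These windows held 49 of the 707 EED peaks on the mark (6.93%) and 5 of the 6548 distant ones. Since heights on chromosomes 22, X and Y are 0 in the second set, such windows could be found there from the first set only.

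The tallest EED peaks on the mark outside those windows were from 300 to 625 bp long, while 91.9% of EED peaks did not exceed 275 bp. Each of these tallest peaks met at least 3 of the 5 other lists. The tallest, of height 195, was on chromosome 9 at 68426076 to 68426375 and lay on RING1B, BMI1 and uH2A rabbit but not on RING1A or uH2A mouse. The next were on chromosome 5 at 3323776 to 3324400 (height 156, with 4 of the 5 other lists) and on chromosome X at 108297351 to 108297675 (height 103, with all 5). Those on chromosome 8 at 58122526 to 58122950 and chromosome 14 at 51026676 to 51027200 had heights of 97.6 and 95.7 and also met all 5. The H3K27me3 peak under them was 75 bp long at the chromosome 5 and chromosome 8 sites, 225 bp at the chromosome 9 site, 450 bp on chromosome X and 750 bp on chromosome 14.

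Tall EED peaks also stood far from any listed mark. The 5 tallest with no H3K27me3 peak within 100 kb had heights from 99.5 to 115. Chromosome 5 had 1 of them (10548651 to 10549575) and chromosome 3 another (195511551 to 195513325). The rest were on chromosome 14 at 50159601 to 50160000, 35204151 to 35204425 and 31591351 to 31591750. The nearest H3K27me3 peak was from 106100 bp away, at the chromosome 5 site, to 440625 bp away, at the second of the chromosome 14 sites. Each met RING1A, BMI1 and both uH2A antibodies, and 2 of them met RING1B as well.

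The longest H3K27me3 peak of all, 10225 bp on chromosome 12 at 113900701 to 113910925, held 1 EED peak of 75 bp. The next longest with EED were 5825 bp each. That on chromosome 1 at 152079726 to 152085550 held 9 EED peaks and met all 5 other lists, and that on chromosome 17 at 74070776 to 74076600 held 3 EED peaks. The remaining peaks of this group, on chromosome 1 at 155051476 to 155056350 and chromosome 5 at 1244426 to 1249025, held 2 and 1. Among H3K27me3 peaks over 100 kb from EED the longest was 5175 bp, on chromosome 12 at 106976451 to 106981625, with RING1A and uH2A rabbit. The others were on chromosome 8 at 11558801 to 11563200 (4400 bp, with RING1A), chromosome 1 at 92946501 to 92950550 (4050 bp, with none of the 5 other lists), chromosome 12 at 48395526 to 48399400 (3875 bp, with RING1A and uH2A rabbit) and chromosome 10 at 71331401 to 71335225 (3825 bp, with uH2A rabbit). None of these 5 met RING1B, BMI1 or uH2A mouse.

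The 5 longest chains of the mark differed widely in their EED content. The longest spanned 140325 bp on chromosome 17 at 77275701 to 77416025, with 161 H3K27me3 peaks over 65.9% of its bases, 3 EED peaks and 20 uH2A rabbit peaks. A chain of 130950 bp on chromosome 14 at 34167151 to 34298100 had 112 H3K27me3 peaks and 8 EED peaks, all 8 on the mark, with 17 RING1A and 16 BMI1 peaks. A chain of 112850 bp on chromosome 6 at 1287051 to 1399900 had 97 H3K27me3 peaks and no EED peak, the nearest being 24125 bp away. On chromosome 19 at 42059601 to 42161900, 79 H3K27me3 peaks came with 1 EED peak and no RING1A, RING1B, BMI1 or uH2A mouse peak. On chromosome 1 at 148851351 to 148952450, 80 H3K27me3 peaks came with 13 EED peaks, and also with 56 RING1B and 56 BMI1 peaks.

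At the scale of 1-Mb windows the 2 lists were only loosely related. Of 2699 windows with a peak of any control list, 1344 (49.8%) held both, 564 EED alone of the 2, 456 H3K27me3 alone and 335 neither. Over these windows the number of EED peaks had a Pearson correlation of 0.401 and a Spearman correlation of 0.334 with the number of H3K27me3 peaks. With RING1A, of the library set of H3K27me3, the values were 0.883 and 0.762, with uH2A mouse 0.880 and 0.774, with uH2A rabbit 0.835 and 0.757, with BMI1 0.699 and 0.691 and with RING1B 0.310 and 0.304. H3K27me3 had its own highest value, 0.496 and 0.483, with uH2A rabbit. Neighbouring windows, mappability and the libraries are shared by all points, so these are descriptions without a test. Numbers of EED and RING1A also changed together in steps held over many neighbouring windows, as along chromosomes 5 and 9. On chromosome 5 the median window held 1 EED peak, while windows near its start held up to 142. DNA copy number is unknown, and whether such blocks account for the higher values with RING1A was not tested. Correlated window numbers do not show that the sites coincide. On autosomes alone the EED and H3K27me3 values were 0.401 and 0.337.

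**Figure D4:**
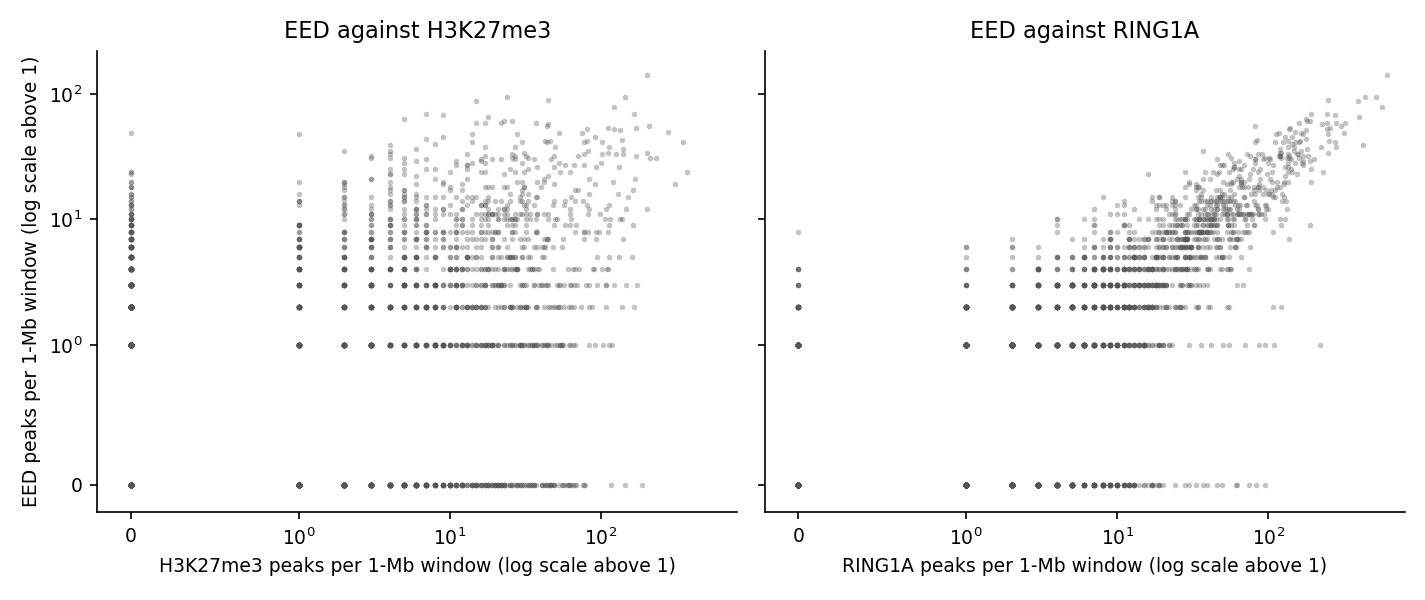
Number of EED peaks per 1-Mb window against the number of H3K27me3 peaks (left) and of RING1A peaks (right), 1 point for each of 2699 windows, on axes that are logarithmic above 1. The points spread over the left panel (Pearson 0.401) and gather along a diagonal on the right (0.883).

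The 270 windows richest in H3K27me3, 10% of all, held 59.7% of the H3K27me3 peaks and 27.03% of the EED peaks (26.3 to 27.8) on 8.71% of the chromosome spans. EED had the second lowest share of the 6 lists set against the mark there, with RING1A at 26.5%, uH2A mouse at 28.0%, BMI1 at 28.4%, uH2A rabbit at 34.3% and RING1B at 35.3%. The 270 windows richest in EED held 55.7% of EED peaks, and 86 windows were in both groups (31.9% of each). EED density rose with that of the mark, from 2.03 peaks per Mb in the 899 windows without H3K27me3 to 6.66 in windows with 10 to 24 H3K27me3 peaks and 23.7 in the 64 windows with at least 100. In those 64 windows 38.9% of EED centres lay within 5 kb of H3K27me3 (36.4 to 41.4), where 34.98% of all bases did. In windows with 1 to 4 H3K27me3 peaks these values were 4.20% (3.37 to 5.16) and 1.55%. Inside the mark the values were 0.830% of EED centres (0.485 to 1.33) and 0.0592% of bases in windows with 1 to 4 H3K27me3 peaks. In the densest windows 14.2% of EED centres lay inside an H3K27me3 peak (12.5 to 16.1) and 4.72% of bases did. The ratio of EED centres to bases was thus smaller in the densest windows at both distances.

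The windows at the top of the 2 lists differed. EED was densest on chromosome 5 at 1000001 to 2000000, with 142 EED and 202 H3K27me3 peaks, 15 of the EED peaks on the mark. The window before it, 1 to 1000000, had 95 EED and 144 H3K27me3 peaks, with 3 EED peaks on the mark. Chromosome 22 at 20000001 to 21000000 had 95 EED peaks beside 24 of H3K27me3 and 439 of RING1A. H3K27me3 was densest on chromosome 17 at 77000001 to 78000000 (370 H3K27me3 and 24 EED peaks), chromosome 8 at 142000001 to 143000000 (349 and 41) and chromosome 16 at 86000001 to 87000000 (309 and 19). There 7, 8 and 4 EED peaks lay on the mark. Windows high in both lists were the same chromosome 5 window, chromosome 1 at 153000001 to 154000000 (69 EED and 167 H3K27me3 peaks, 15 of the EED peaks on the mark) and chromosome 10 at 134000001 to 135000000 (55 and 207, with 3 on the mark).

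By chromosome, the 2 lists were sparsest in the same places but mostly densest in different ones, with chromosome 17 high in both. EED was densest on chromosomes 14 (12.0 peaks per Mb), 21 (10.6) and 17 (7.60), and sparsest on X (0.0580), Y (0.303) and 13 (1.21). H3K27me3 was densest on chromosomes 19 (33.2 per Mb), 20 (21.7) and 17 (20.4), and sparsest on X (3.52), Y (4.77) and 13 (5.03). Chromosome 21 was the only chromosome with more EED than H3K27me3 peaks, 511 and 425, or 120.2 EED peaks per 100 of the mark. Chromosome 14 had 73.9 per 100, chromosome Y 6.36 and chromosome X 1.65, where 9 EED peaks stood beside 547 of H3K27me3. On chromosome 14 EED peaks were spread over 84 of its 86 windows, with a median of 8 per window, and the densest window held 6.14% of them. Chromosome 22 was uneven, as 24.7% of its 385 EED peaks lay in 1 window.

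**Figure D5:**
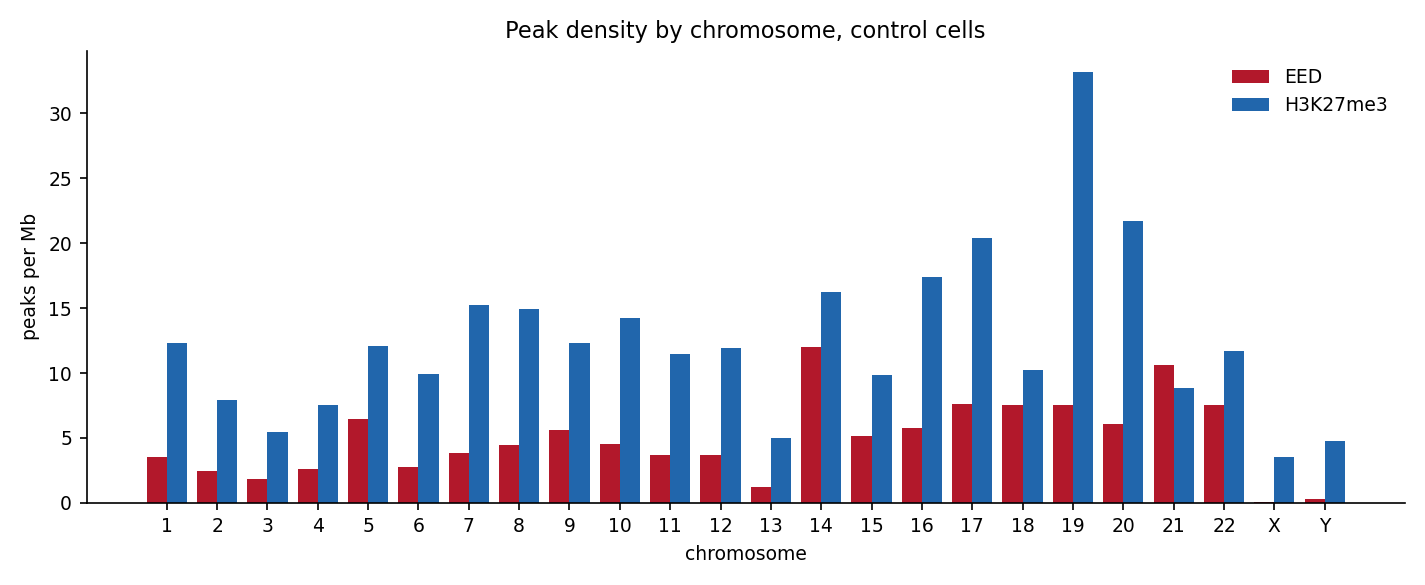
EED and H3K27me3 peaks per Mb of each chromosome in control cells, from 1 library each, so the bars have no error. EED exceeds H3K27me3 on chromosome 21 alone (10.6 and 8.83 per Mb) and is nearly absent from X (0.0580 per Mb).

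Over the 22 autosomes the density of EED had a Pearson correlation of 0.436 and a Spearman correlation of 0.560 with that of H3K27me3, and of 0.958 and 0.939 with that of RING1A. All points share the same libraries and DNA copy number is unknown, so these too are descriptions. A chromosome rich in EED was not always one on which EED met the mark. EED lay within 5 kb of H3K27me3 for 25.9% of the 502 peaks of chromosome 4 (22.1 to 30.0), which has 2.63 EED peaks per Mb. That mean hides an uneven spread. EED was in 85 of the 162 windows of chromosome 4, and the densest, near its start, held 10.6% of its EED peaks. Most neighbouring windows there were also rich in both lists. The share within 5 kb was 20.2% for the 889 peaks of chromosome 1 (17.7 to 23.04). It was 16.4% on chromosome 14 (14.4 to 18.5), 12.9% on 21 (10.1 to 16.1) and 7.01% on 22 (4.67 to 10.0). Bases within 5 kb of the mark made up 2.55% of chromosome 4, 4.63% of 1, 5.23% of 14, 3.31% of 21 and 4.26% of 22. These 5 chromosomes were chosen after their values were seen. On chromosome Y, 8 of 18 EED peaks lay on the mark (44.4%, 21.5 to 69.2) and 13 within 5 kb of it, where 1.30% of bases did. These peaks are few and clustered, as 1 window held 8 of the 18.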

How the data were processed

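ChIP-seq peak lists of 7 control libraries were analysed, and those of EED and H3K27me3 were the members. Libraries were made from 10 to 20 ng of DNA and sequenced in reads of 40 nt, per the labels' protocols. Reads were aligned to hg19 with Bowtie, per the submitters' processing notes, which give no version here. The lists are named for the caller HPeak and came 1 per library. Their height is a signal value of the deposited lists, taken as the caller wrote it and not normalised between libraries. Depth is unknown.

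Overlap meant at least 1 bp in common, and other distances were edge to edge. Shares carry Clopper-Pearson and differences Newcombe intervals, at the 95% level. Chromosome spans run to the largest end in any control list. The distance functions were tested on simulated lists. The members, comparisons, alternatives and naming rules were chosen with earlier results of these data known. Sites were named by rank: the 5 tallest EED peaks on the mark and the 5 over 100 kb from it, outside high-signal windows, the 5 longest H3K27me3 peaks in each of the same classes, the 5 longest chains, the 3 top windows of each list and of both, and the chromosomes at each end of density and ratio. Restriction to chromosomes 1 to 21 was an alternative added after the data were seen. The software was Python 3.11.15, numpy 2.4.6, scipy 1.17.1, pandas 2.3.3 and matplotlib 3.10.9.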

Additional observations from a re-analysis of the deposited data

How the results depend on the processing

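Of 55 values under 11 alternatives, 31 stayed within the interval of the value reported, or moved by less than 25 bp for length. With the tallest H3K27me3 peaks in the number of EED peaks, EED peaks on H3K27me3 were 3.58%, H3K27me3 peaks on EED 3.26%, EED within 5 kb of H3K27me3 8.10%, H3K27me3 within 5 kb of EED 16.1% and the length difference 225 bp. That list leaves out chromosomes 22, X and Y, where heights are 0. With the lower-than-median heights of each list left out, EED within 5 kb was 11.6%, H3K27me3 within 5 kb 10.4%, the length difference 125 bp, EED in dense windows 28.2% and isolated EED peaks 70.4%. This cut-off removed every peak of the second library set on chromosomes 22, X and Y, while EED peaks there could stay. With peaks within 1000 bp merged, H3K27me3 on EED was 3.49%, EED within 5 kb 12.7%, H3K27me3 within 5 kb 11.1%, EED in dense windows 21.3% and isolated EED peaks 80.1%. Overlaps of at least 50% of the peak gave 4.71% for EED and 0.772% for H3K27me3, whose peaks are longer. H3K27me3 within 5 kb of EED was 13.0% between centres, 13.1% outside high-signal windows and 13.9% both for heights above 0 and for chromosomes 1 to 21. Isolated EED peaks were 67.7% on chromosomes 1 to 21 and 82.1% when isolation meant 1 kb, and windows of 500 kb gave 25.4% in dense windows. The cause of the other moves was not tested. No paired analysis was possible because each group has 1 library.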

Other observations

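The low number of EED peaks on chromosome X was shared by part of the other lists. Of the first library set, EED had 9 peaks there, uH2A mouse 16 and uH2A rabbit 109. Of the second set, RING1B had 143, BMI1 145, RING1A 198 and H3K27me3 547. As a share of the list this was 0.0688% for EED, 0.0472% for uH2A mouse, 0.403% for uH2A rabbit, 0.354% for RING1A, 0.698% for BMI1, 1.55% for H3K27me3 and 2.77% for RING1B. The sets cannot be told apart from the antibodies they hold.

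Chromosomes 14 and 21, rich in EED relative to the mark, were dense in all 5 other lists. Chromosome 14 had 61.9 RING1A peaks per Mb and chromosome 21 had 49.04, where the median of the 22 autosomes was 18.4. In the same order the values were 31.0, 18.8 and 4.92 for BMI1, and 7.39, 7.65 and 1.28 for RING1B. They were 31.1, 23.5 and 12.4 for uH2A mouse, and 18.0, 19.9 and 9.49 for uH2A rabbit. Chromosome 18, with 73.6 EED peaks per 100 of the mark, had 29.8 RING1A peaks per Mb but 9.486 of uH2A rabbit. For H3K27me3, 16.2 and 8.83 per Mb on chromosomes 14 and 21 stood beside an autosomal median of 12.0.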
